A study of Mus musculus with 8 samples.

Results

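The genes described here are 34 genes of meiotic recombination and synapsis, taken by a list of names from the 31010 genes of the expression table of germline stem (GS) cell lines. GS cells are cultures of spermatogonial stem cells that renew themselves in a medium with GDNF and FGF2. RNA-seq covered 8 lines of the C57BL/6 (B6) background from F1 mice, described as wild-type and all kept in the same medium. The 4 ICSI lines came from mice conceived by intracytoplasmic injection of a sperm into the oocyte, and the 4 control lines came from mice sired by natural mating. The study calls the sperm of the ICSI mice wild-type, but took it from green mice, which carry an Egfp transgene. Whether ICSI and control lines differ in this transgene was not stated. The labels gave no age of the mice, no passage of the cultures and no litter. The numbers of the lines are also those of individual F1 mice in the study's supplement, but the labels do not say that each line came from its own mouse, so n counts lines and p-values measure the spread between lines. The names of the samples were written in 2 styles, called label forms here: form 1 was that of control 29, control 37, ICSI 11 and ICSI 17, and form 2 that of control 44, control 45, ICSI 20 and ICSI 21. The processing notes in the labels also differed by form: they list cutadapt 3.4, STAR 2.7.9a and HTSeq 0.13.5 for form 1, and cutadapt 1.16, STAR 2.6.0c and HTSeq 0.11.2 for form 2, so that differences between the forms cannot be told apart from these versions.

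In meiosis, homologous chromosomes are broken on purpose, paired and exchanged before they are parted. Cohesin and HORMA-domain proteins build an axis along each chromosome, SPO11 and its partners cut the DNA at sites marked by PRDM9, and the recombinase DMC1 finds the homologous copy. The synaptonemal complex then zips the paired axes together, and MutS and MutL proteins bring a few of the exchanges to crossovers. These steps take place in spermatocytes, which arise from differentiating spermatogonia after STRA8 and MEIOSIN switch the cells into meiosis. Spermatogonial stem cells stand before that switch.

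The levels are in FPKM, which is fragments per kilobase of gene length scaled to a library size set for each line. Different genes can thus be compared per length. The reads recovered from the values numbered 24706788 to 44274479 per line. The library sizes behind the values ran from 0.9565 times these reads in control line 44 to 1.0716 times in control line 29. With those sizes, a single read on 1 kb equalled 0.0227 to 0.0401 FPKM. Germ cell identity was clear in the markers: Dazl, an RNA-binding protein of germ cells, lay between 257 and 420.4 FPKM, and Ddx4, a germ cell RNA helicase, between 173 and 274 FPKM. Of the sperm head genes, Prm1, Prm2 and Tnp2 were at 0 in every line and Tnp1 was at 5.38 to 12.3 FPKM. Of 13 markers of pachytene spermatocytes and spermatids, 4 reached a mean of 1 FPKM. The 18 fibroblast markers were all detected. Their mean log2(FPKM + 1) reached 5.32 in control line 29, then 5.05 in control 44 and 4.59 in ICSI 20, with 3.34 to 4.31 elsewhere. In bulk RNA, fewer cells that express a gene and less RNA per cell cannot be told apart.

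The stretches upstream of the RefSeq gene start of Sycp3, Smc1b, Stag3 and Rad21l are shown because these genes carry the main results below. The first 3 are the members with the highest levels. Rad21l had the largest difference between the 2 label forms among the members called between them. Each run holds the 250 bases before the RefSeq gene start, 5′ to 3′ on the gene's strand, in build GRCm38.p6, with matches to CACGTG (an E-box), TTCCCGC or its reverse complement GCGGGAA (the core of E2F sites) and CNCCTCAG in capitals. CACGTG reads the same on both strands, and the other motifs were searched on both.

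Sycp3 (chr10:88459337-88459586, plus strand): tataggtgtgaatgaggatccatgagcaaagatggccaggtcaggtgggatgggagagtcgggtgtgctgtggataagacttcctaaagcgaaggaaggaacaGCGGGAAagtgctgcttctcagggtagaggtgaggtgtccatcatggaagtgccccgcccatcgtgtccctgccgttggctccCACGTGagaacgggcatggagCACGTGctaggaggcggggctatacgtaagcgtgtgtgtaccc
Smc1b (chr15:85131958-85132207, minus strand): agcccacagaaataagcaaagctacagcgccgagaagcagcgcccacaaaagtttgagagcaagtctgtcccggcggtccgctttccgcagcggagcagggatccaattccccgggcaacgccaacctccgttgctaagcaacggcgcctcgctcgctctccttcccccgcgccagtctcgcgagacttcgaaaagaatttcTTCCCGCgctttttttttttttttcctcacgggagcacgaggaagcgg
Stag3 (chr5:138280259-138280508, plus strand): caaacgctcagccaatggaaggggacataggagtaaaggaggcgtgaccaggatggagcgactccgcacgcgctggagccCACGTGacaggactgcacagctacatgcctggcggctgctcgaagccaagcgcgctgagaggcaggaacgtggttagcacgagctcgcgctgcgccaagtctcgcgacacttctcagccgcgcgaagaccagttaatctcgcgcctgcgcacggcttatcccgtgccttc
Rad21l (chr2:151668534-151668783, minus strand): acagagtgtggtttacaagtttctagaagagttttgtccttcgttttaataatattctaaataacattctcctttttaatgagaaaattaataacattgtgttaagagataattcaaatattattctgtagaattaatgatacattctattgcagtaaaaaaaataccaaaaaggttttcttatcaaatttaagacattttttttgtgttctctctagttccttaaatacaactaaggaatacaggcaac

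The Sycp3 stretch held CACGTG at 2 places and GCGGGAA once, that of Smc1b held TTCCCGC once, and that of Stag3 held CACGTG once. The Rad21l stretch, rich in A and T, held no match to these letters. RefSeq windows of 300 bases, from 250 before to 50 after the start, were matched for 28 of the 34 genes. TTCCCGC on either strand was found in 10 of the 28 windows (35.7%) and in 6.2% of 16738 protein-coding windows, or in 9.3% of the 9317 whose gene reached 1 FPKM on average. CACGTG was found in 6 windows of the set (21.4%), against 8.1% of all protein-coding windows and 11.0% of those of expressed genes. CNCCTCAG was also found in 6 (21.4%), against 8.8% and 9.4%. These shares are a description without a test, and a match is no evidence of binding.

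The windows of the meiotic genes were of middling CpG content. Their median ratio of observed to expected CpG was 0.707, between the 0.6 of all protein-coding windows and the 0.784 of windows of expressed genes. A ratio of at least 0.6 was reached by 19 of the 28 windows (67.9%), against 8372 of the 16738 and 76.3% of expressed ones. The extremes among the highly expressed members were Smc1b with a ratio of 1.08 and Stag3 with 1.06, and Syce3 with 0.218 and Rad21l with 0.317. The Rad21l window also had the lowest share of G and C in the set. The RefSeq start lay 12480 bases from the gene start of the GENCODE annotation for Mei1 and 2405 bases from it for Rec114. It lay 1869 bases away for Meioc, 1247 for Msh4, 431 for Hfm1 and 269 for Stag3. These windows stand for a single start out of several, and the printed Stag3 stretch lies inside the GENCODE gene.

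All 34 genes had reads in every line. The mean over 8 lines was at least 10 FPKM in 16 genes, between 1 and 10 FPKM in 16 and under 1 FPKM in 2. The median of the set was 8.46 FPKM, close to the 8.58 FPKM of the 12000 genes whose mean reached 1 FPKM and above the 1.01 FPKM of all 23964 genes with any read. The order of levels was loose: of 33 pairs of neighbours in it, 32 had overlapping ranges over the lines, and only 4 pairs kept their order in all 8 lines. Msh4 and Prdm9 were the only neighbours whose ranges did not overlap.

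**Figure D1:**
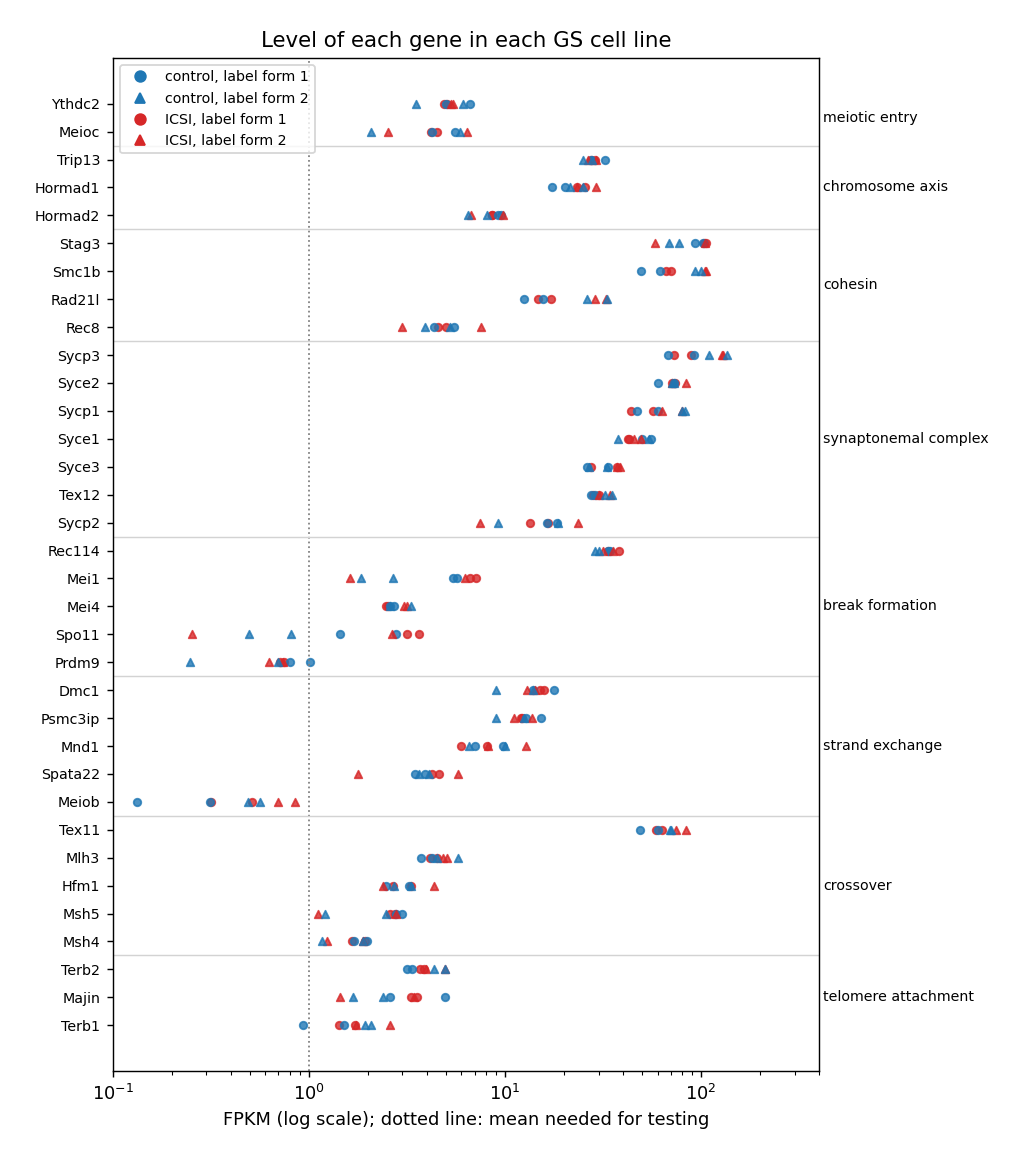
FPKM (x axis, log scale) of each of the 34 genes (y axis, grouped by role) in each of 8 GS cell lines, with control lines in blue, ICSI lines in red, circles for label form 1 and triangles for label form 2. Sycp3, Stag3 and Smc1b lie farthest right, Prdm9 and Meiob lie left of 1 FPKM on average, and Spo11 spans the widest range.

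The roles differed in level. The 7 synaptonemal complex genes had a median of 47.2 FPKM, ranging in mean from 15.5 to 103 FPKM. The 4 cohesin genes had a median of 52.0 FPKM and a range from 4.89 to 89.1 FPKM. The 5 break formation genes had a median of 2.80 FPKM, the 5 crossover genes 3.06 FPKM and the 3 telomere attachment genes 2.93 FPKM. The 5 strand exchange genes stood between, with a median of 8.55 FPKM.

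Of the genes for meiotic entry, Ythdc2, an RNA helicase that acts with MEIOC, had a mean of 5.24 FPKM, and Meioc, which holds spermatocytes in meiotic prophase, had a mean of 4.42 FPKM. Meioc varied more over the lines, from 2.06 FPKM in control line 44 to 6.43 FPKM in ICSI line 21, and Ythdc2 ranged from 3.52 to 6.66 FPKM. The axis genes were Hormad1 at a mean of 23.2 FPKM and Hormad2 at 8.37 FPKM, whose products bind unsynapsed axes, and Trip13 at 28.1 FPKM, an ATPase that removes them and that dividing cells also use in the spindle checkpoint. Trip13 was among the steadiest genes of the set: its highest line was 1.29 times its lowest.

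All 7 synaptonemal complex genes had means above 10 FPKM. In the sentences that follow, the first 4 values belong to control lines 29, 37, 44 and 45 in that order and the last 4 to ICSI lines 11, 17, 20 and 21. Sycp3, which codes for a filament protein of the lateral element, lies at chr10:88459569-88473236 and was at 67.7, 92.4, 136 and 110.3 FPKM in control lines and at 89.3, 72.8, 127 and 130.0 FPKM in ICSI lines. In rank it was number 281 of all genes listed. Its exons share 660 bases with Chpt1 on the other strand, a gene at 3.30 FPKM. All 4 lines of form 2 were above all 4 of form 1.

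Sycp1, which codes for the transverse filament that joins the axes, was at 47.0, 60.6, 82.8 and 79.7 FPKM in control lines and at 56.7, 43.8, 63.3 and 79.8 FPKM in ICSI lines. Syce1, a central element gene, was at 49.9, 55.6, 37.8 and 54.1 FPKM and at 43.1, 42.5, 45.6 and 49.3 FPKM. Syce2, another central element gene, was at 60.5, 72.6, 71.0 and 72.5 FPKM and at 71.1, 73.4, 71.4 and 84.0 FPKM. Sycp1 was higher in form 2, whereas Syce1 and Syce2 showed no such separation, and Syce2 spanned only a 1.39-fold range.

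Syce3, which links the transverse filament to the central element, was at 33.3, 26.1, 33.2 and 26.7 FPKM in control lines and at 27.6, 37.4, 37.3 and 38.7 FPKM in ICSI lines. ICSI lines 17, 20 and 21 were above every control line, and ICSI line 11 lay among the lower controls. Tex12, a partner of SYCE2, had a mean of 30.8 FPKM and a range from 27.5 to 35.2 FPKM. Sycp2, the lateral element partner of SYCP3, was at 16.4, 18.4, 9.19 and 18.7 FPKM and at 16.5, 13.4, 7.43 and 23.7 FPKM, so that control line 44 and ICSI line 20 were the lowest and ICSI line 21 the highest.

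Cohesin is the ring that holds sister chromatids, and meiotic cells exchange several of its subunits for meiotic forms. Stag3 (chr5:138280240-138312393) was at 92.7, 101.8, 68.7 and 76.8 FPKM in control lines and at 106, 104, 58.5 and 104.7 FPKM in ICSI lines. Smc1b (chr15:85064689-85131964) was at 49.4, 61.8, 93.0 and 99.98 FPKM and at 66.0, 70.2, 106 and 105 FPKM. Stag3 was low in ICSI line 20 and in both control lines of form 2, while Smc1b was high in all 4 lines of form 2.

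The meiotic kleisins, which close the ring, were at lower levels. Rad21l (chr2:151645404-151668533) was at 15.6, 12.5, 33.2 and 26.2 FPKM in control lines and at 17.2, 14.7, 32.6 and 28.8 FPKM in ICSI lines. Rec8 was at 5.47, 4.34, 3.91 and 5.25 FPKM and at 5.03, 4.58, 2.97 and 7.55 FPKM. Rad21l followed the label form without overlap, and Rec8 did not.

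Set beside the general subunit that serves dividing cells, the meiotic subunits split into those above and those below. Smc1b was above Smc1a in 8 of 8 lines, with a ratio of 1.96 to 4.19 and a median of 2.73. Stag3 was above Stag1 in 8 of 8 lines (2.15 to 4.95 times) and above Stag2 in 8 of 8 (3.29 to 8.10 times). The kleisins ran the other way: general Rad21 was above Rad21l by 5.43 to 10.5 times and above Rec8 by 22.0 to 63.7 times, in 8 of 8 lines each. Of the FPKM of the 3 kleisins together, Rad21 held 82.1% to 88.7%, Rad21l 8.40% to 15.3% and Rec8 1.32% to 3.82%. These are ratios of RNA levels per length and say nothing of protein.

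**Figure D2:**
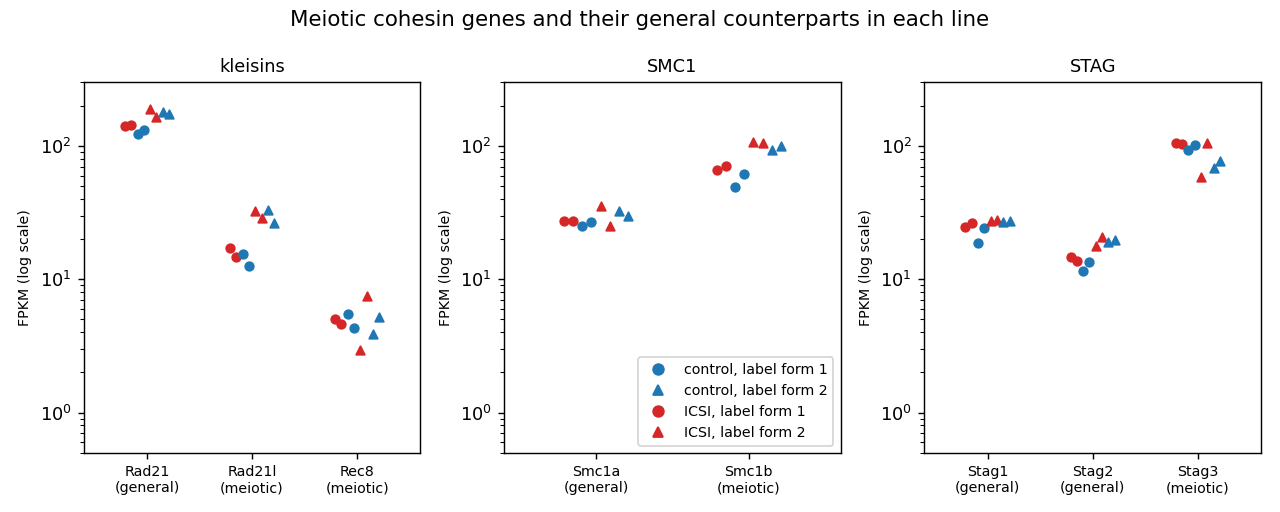
FPKM (y axis, log scale) of meiotic cohesin genes and of their general counterparts (x axis) in 8 lines, control in blue, ICSI in red, circles for label form 1 and triangles for label form 2. Smc1b and Stag3 sit above Smc1a, Stag1 and Stag2 in every line, while Rad21l and Rec8 sit below Rad21 in every line.

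The break formation genes were low, apart from Rec114. Rec114, a subunit of the complex that activates SPO11, was at 34.5, 33.4, 30.0 and 28.9 FPKM in control lines and at 33.3, 38.2, 35.4 and 31.4 FPKM in ICSI lines, a steady gene with a 1.32-fold range. Its exons share 344 bases with Nptn on the other strand, a gene at 21.8 FPKM, and the kit named in the labels and that named in the study's methods differ, so reads in the overlap cannot be assigned. Mei4, the partner of REC114, was at a mean of 2.80 FPKM with a 1.34-fold range. Prdm9, the histone methyltransferase that sets the sites of breaks, had 35 to 133 reads and 0.248 to 1.02 FPKM. In control line 44 its value was 0.248 FPKM with a 95% Poisson interval from 0.173 to 0.345, below the interval of every other line.

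Spo11, which codes for the subunit that cuts the DNA, had the largest SD of log2(FPKM + 1) over the lines among the tested members, followed by Mei1, whose loss leaves too few breaks. Both fall outside the rule for values in every line and were singled out after their values were seen. Spo11 (chr2:172977700-172993576) was at 1.44, 2.77, 0.498 and 0.815 FPKM in control lines and at 3.17, 3.66, 0.255 and 2.66 FPKM in ICSI lines, on 31 to 404 reads. The highest line was 14.3 times the lowest, and the 95% Poisson intervals of ICSI line 20 (0.174 to 0.362 FPKM) and ICSI line 21 (2.39 to 2.95 FPKM) were far apart. Poisson intervals cover counting error only.

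Mei1 (chr15:82069996-82126814) was at 5.44, 5.72, 1.84 and 2.67 FPKM in control lines and at 6.63, 7.12, 1.62 and 6.28 FPKM in ICSI lines. The spread of Spo11 over the lines, as the SD of log2(FPKM + 1), was larger than that of 98.0% of the genes tested and that of Mei1 larger than that of 97.3%. For both genes ICSI line 20 and control lines 44 and 45 were low, and ICSI line 21 of the same label form was not. The tested members as a set had a median SD of 0.247, and all genes tested had one of 0.214.

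Among genes of strand exchange, Dmc1, the meiotic recombinase, had a mean of 14.0 FPKM and ranged from 9.05 to 17.7 FPKM. Psmc3ip and Mnd1, which form the HOP2-MND1 pair that helps DMC1, had means of 12.3 and 8.55 FPKM. The exons of Psmc3ip share 385 bases with Mlx on the other strand, so its value is uncertain in the same way. Spata22 had a mean of 3.94 FPKM and fell to 1.77 FPKM in ICSI line 20, and the annotation used here places 1025 exon bases of Spata22 also in Gm49340. Meiob, the single-strand DNA-binding partner of SPATA22, was the lowest member at 6 to 53 reads and 0.134 to 0.853 FPKM.

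Of the crossover genes, Tex11 stood far above the rest. Tex11 (chrX:100838648-101059667), an X-linked gene needed for crossovers and male fertility, was at 48.9, 60.5, 70.3 and 69.6 FPKM in control lines and at 59.0, 62.9, 83.4 and 74.6 FPKM in ICSI lines. Mlh3, a MutL endonuclease of crossover sites, had a mean of 4.60 FPKM. Hfm1, a helicase, had a mean of 3.06 FPKM. The MutS pair that stabilises exchange intermediates was lowest, with Msh5 at a mean of 2.33 FPKM and Msh4 at 1.68 FPKM. A small nucleolar RNA on the other strand shares 125 exon bases with Msh4.

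The 3 genes that tether telomeres to the nuclear envelope for chromosome pairing were low. Terb2 had a mean of 4.04 FPKM, Majin 2.93 FPKM and Terb1 1.74 FPKM. Majin ranged from 1.44 FPKM in ICSI line 20 to 4.96 FPKM in control line 37, a 3.45-fold span. Terb1 was lowest in control line 29, at 0.937 FPKM.

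The study asked whether conception by ICSI changes gene expression in the stem cells of the offspring. No member differed between ICSI and control lines in limma on log2(FPKM + 1), with Benjamini-Hochberg adjustment over 12000 genes at a threshold of 0.05. A total of 32 members were tested, since Prdm9 and Meiob did not reach a mean of 1 FPKM. Of all genes, 0% were called, and 55 had an unadjusted p under 0.05, none of them a member. Limma-voom on recovered reads also called 0 genes, with 49 at an unadjusted p under 0.05. The median ICSI minus control difference was 0.04 for the members and -0.01 for all genes tested, and 25 of the 32 members were nominally higher in ICSI lines, as were 44.3% of all genes tested. Read within each label form, 17 members were higher in the ICSI lines of form 1 and 27 in those of form 2, and the median of the members was -0.0012 without ICSI line 21 and 0.11 without ICSI line 20. In no member did the 4 ICSI lines lie all above or all below the control lines, a pattern that 0.208% and 0.233% of all genes tested showed.

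The members nearest to a difference were an axis gene, a central element gene and a break formation gene. Hormad1 was at 17.3, 20.2, 24.9 and 21.5 FPKM in control lines and at 23.4, 25.6, 23.3 and 29.04 FPKM in ICSI lines. The difference was 0.27 on the log2 scale (95% confidence interval -0.02 to 0.56, limma adjusted p 1.0, exact permutation p 0.0857). The groups overlapped through control line 44. With label form as covariate the same difference had an interval from 0.02 to 0.51 and a limma adjusted p of 1.0, and Hormad1 was then the 1 member among 140 genes with an unadjusted p under 0.05. Syce3 differed by 0.23 (-0.08 to 0.55, exact permutation p 0.171) and Rec114 by 0.12 (-0.11 to 0.36, exact permutation p 0.2).

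On the lower side, Syce1 differed by -0.11 (95% confidence interval -0.41 to 0.18, exact permutation p 0.429), Sycp1 by -0.14 (-0.64 to 0.35, exact permutation p 0.543) and Sycp2 by -0.09 (-0.82 to 0.64, exact permutation p 0.857). The permutation tests were two-sided over 70 assignments, with a smallest possible p of 0.0286, and each of these 6 members had a limma adjusted p of 1.0. The intervals show what size of change could have been missed. They lay within 1 either way on the scale of log2(FPKM + 1) for 30 of 32 members. Spo11 (-0.51 to 1.43) and Mei1 (-0.56 to 1.26) were the exceptions. For low genes, a difference of 1 on this scale is more than a 2-fold change in FPKM. With label form as covariate they did so for 31 members, with Spo11 at -0.24 to 1.16 and Mei1 at -0.28 to 0.97, and 0 genes were called. With ICSI line 17 left out, the sign of the Sycp1 difference turned, and that of Sycp2 turned without control line 45 or ICSI line 20.

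The ICSI difference was then read within each label form, with 2 lines of each group. Hormad1 was higher in ICSI lines by 0.37 in form 1 and by 0.16 in form 2, Syce3 by 0.12 and 0.34, and Rec114 by 0.07 and 0.18. Sycp1 was lower in both forms, by values of -0.10 and -0.19. The differences of Syce1 (-0.29 and 0.07) and Sycp2 (-0.21 and 0.03) had opposite signs in the forms. Over the tested members, 14 of 32 kept the same sign in both forms. The interaction of ICSI and label form was called by limma for 0 members and 0% of all genes, and the 147 genes with an unadjusted p under 0.05 included no member.

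**Figure D3:**
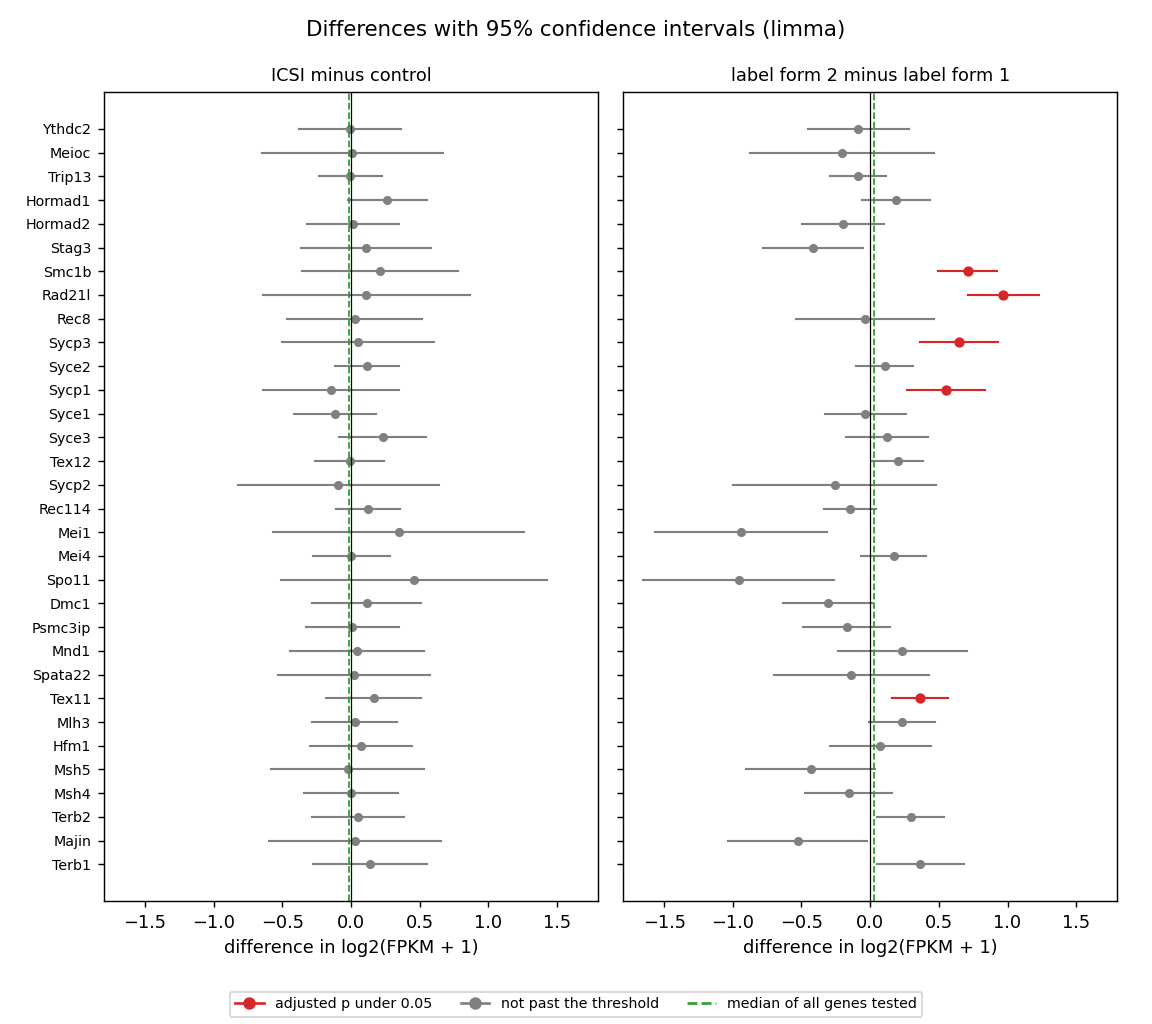
Differences in log2(FPKM + 1) (x axes) with 95% confidence intervals for the 32 tested members (y axis), ICSI minus control on the left and label form 2 minus form 1 on the right, with called members in red and the median of all genes tested as a dashed line. No interval on the left, from the fit without label form, excludes a difference of 0, and the called members on the right are Smc1b, Rad21l, Sycp3, Sycp1 and Tex11, all higher in form 2.

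The label forms, in contrast, separated several members. Of the 32 tested, 5 were higher in form 2 and 0 lower at an adjusted p under 0.05, with the group as covariate. These 15.6% of members compare with 16.0% of all genes tested, of which 10.2% were higher and 5.76% lower, so the share was that of the background. Among the members the called genes were 2 cohesin subunits, 2 synaptonemal complex filament genes and Tex11. The median difference was -0.04 for the members and 0.03 for all genes tested.

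Rad21l had the largest difference of the 5, from a mean of 15.0 ± 1.96 FPKM in form 1 to 30.2 ± 3.31 FPKM in form 2 (SD, n = 4 lines each). It amounted to 0.97 on the log2 scale (SE 0.11, limma adjusted p 0.00792). Smc1b rose from 61.9 ± 8.97 to 101.1 ± 5.98 FPKM, by 0.71 (SE 0.09, limma adjusted p 0.00828). Sycp3 rose from 80.6 ± 12.2 to 126 ± 11.0 FPKM, by 0.64 (SE 0.12, limma adjusted p 0.0173).

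Sycp1 differed by 0.55 (SE 0.13, limma adjusted p 0.0263) and Tex11 by 0.36 (SE 0.09, limma adjusted p 0.0320). Rad21l and Smc1b stayed past the threshold under every alternative tried, with adjusted p from 0.00548 to 0.0341 and from 0.00798 to 0.0409. Sycp1 (0.0263 to 0.0784) and Tex11 (0.0306 to 0.109) did not, nor did Sycp3 (0.0164 to 0.0679). Just beyond the threshold, and lower in form 2, were Mei1 with -0.94 (limma adjusted p 0.0509) and Spo11 with -0.96 (limma adjusted p 0.0645). The size for Spo11 was -1.66 with a pseudocount of 0.1 and -1.83 with 0.01, and it was -0.63 without ICSI line 20. Without both control line 44 and ICSI line 20 it was -0.50 for Spo11 and -0.48 for Mei1. Under quantile normalization Mei1 was called and Sycp1 and Tex11 were not, and the share of all called genes that were higher in form 2 went from 64.0% to 50.8%.

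By range alone, all 4 form 2 lines were above all 4 form 1 lines in 9 of 32 members: the 5 called genes, Mlh3, Terb1, Terb2 and Tex12. That pattern was shown by 16.0% of all genes tested. The opposite pattern was found in 0 members and in 10.8% of all genes tested. The libraries of form 2 were also the deeper ones, at 32355484 to 44274479 recovered reads against 24706788 to 26661140, and the listed versions of the aligner and counter differed as well, so the forms, depth and versions cannot be told apart.

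Some general counterparts also differed between the forms, as did 16.0% of all genes tested. Of 13 general counterparts, 3 were higher in form 2 and 0 lower: Rad21 by 0.40 (limma adjusted p 0.0234), Stag2 by 0.50 (limma adjusted p 0.0172) and Smc6 by 0.45 (limma adjusted p 0.0235). The ratio of Rad21l to Rad21 was 0.150 to 0.184 in form 2 lines and 0.0948 to 0.128 in form 1 lines. The ratio of Stag3 to Stag2 was 3.29 to 5.04 in form 2 and 7.15 to 8.10 in form 1. Neither ratio overlapped between the forms.

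Among 54 other meiotic genes, 51 were tested, 4 were higher and 3 lower in form 2, and the median difference was -0.07. Over all genes tested, 10.2% were higher and 5.76% lower, with a median of 0.03. Rbm46, an RNA-binding protein of meiotic entry, was higher by 0.42 (limma adjusted p 0.0243), Hsf2bp, a partner of BRCA2, by 0.50 (limma adjusted p 0.0274) and Sfr1, a cofactor of the recombinases, by 0.53 (limma adjusted p 0.0282). Rnf212, a crossover factor, was lower, with -0.65 (limma adjusted p 0.0311), and so was Meiosin (listed as Gm4969), the partner of STRA8, with -0.92 (limma adjusted p 0.0394). In the ICSI comparison 0 genes of this list were called, and its median was 0.03.

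Markers of spermatogonial state moved with the label form as well, beside 10.2% of all genes tested that were higher and 5.76% lower. Of 13 markers of undifferentiated spermatogonia, 7 were higher and 1 lower in form 2, with a median of 0.48. Examples were Etv5, a GDNF target, with 1.16 (limma adjusted p 0.00792), Gfra1, the GDNF receptor, with 0.67 (limma adjusted p 0.0216), and Dazl with 0.52 (limma adjusted p 0.0173). Id4 was also higher, with 1.11 (limma adjusted p 0.0210), and Pou5f1 lower, with -0.72 (limma adjusted p 0.0286), while Zbtb16 differed by 0.02 (limma adjusted p 0.942). Of 7 markers of differentiating spermatogonia, 0 were higher and 2 lower, Meiosin and Kit, the receptor of differentiating spermatogonia, with -0.80 (limma adjusted p 0.0351). The part of these markers in the differences of the meiotic genes was not tested.

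Markers of Sertoli and Leydig cells were near the floor or mixed. Of 8 Sertoli cell markers 3 were tested, and Sox9 was higher by 1.03 (limma adjusted p 0.0242) while Wt1 was lower, with -0.82 (limma adjusted p 0.0150). Amh and Fshr, also of the Sertoli list, stayed under 0.06 FPKM in every line. Of 5 Leydig cell markers 1 was tested, Star, and Cyp17a1 was at 0. The 18 fibroblast markers were well above the floor, at a mean log2(FPKM + 1) of 3.34 to 5.32 by line. None of them was called in either comparison. Of the 4 tested late germ cell markers, only Hspa2 was called, with 0.79 (limma adjusted p 0.00913).

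A second pattern was shared by a control line and an ICSI line, both of form 2. Control line 44 and ICSI line 20 were the lowest pair in 11 of 32 tested members (34.4%), against 17.7% of all genes tested. These were Dmc1, Hormad2, Majin, Mei1, Meioc, Msh4, Msh5, Rec8, Spo11, Stag3 and Sycp2. The same lines were the highest pair in 2 members (6.25%), Rad21l and Terb2, against 17.9% of all genes. The lines were chosen after the values were seen, so these shares are a description.

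**Figure D4:**
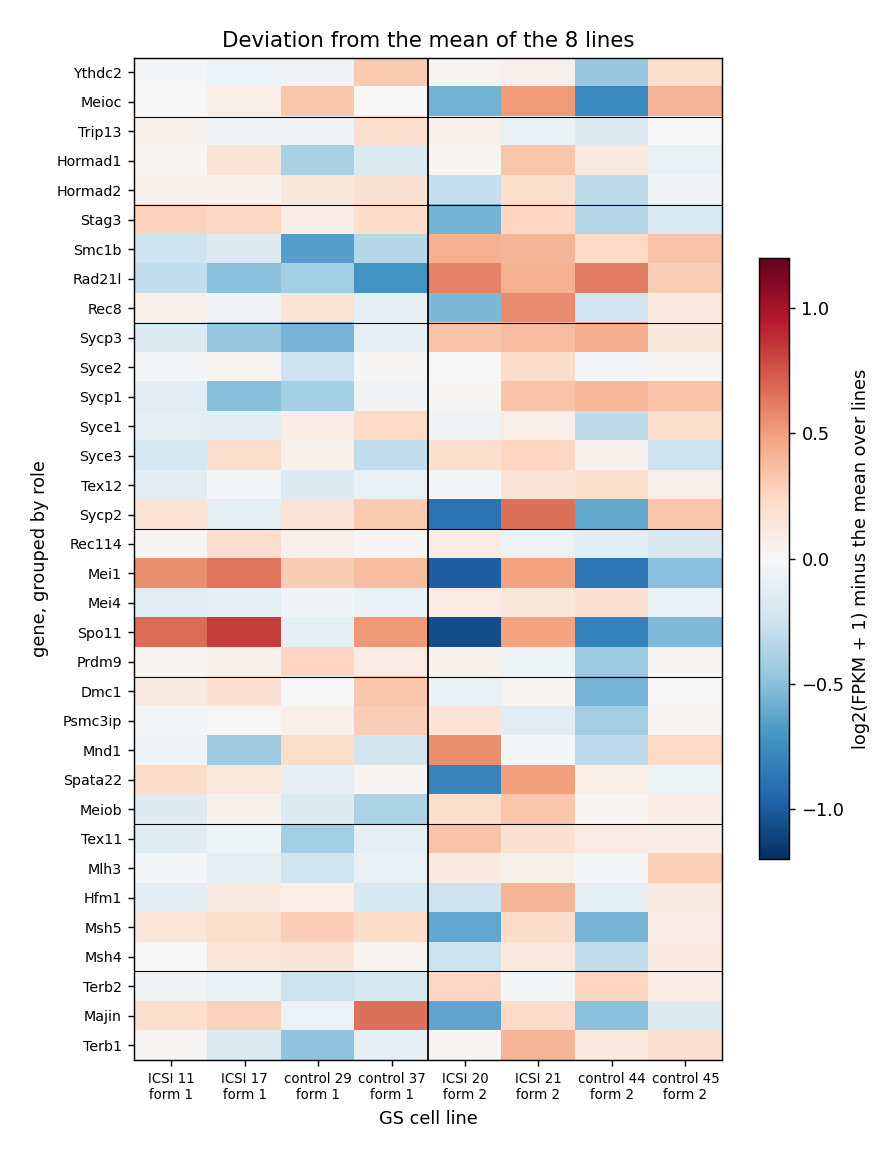
Deviation of log2(FPKM + 1) from the mean of the 8 lines (colour, blue below and red above) for each of the 34 genes (rows, grouped by role) in each line (columns, label form 1 left of the line and form 2 right). ICSI line 20 and control line 44 are blue for Spo11, Mei1, Sycp2, Meioc, Msh5 and Majin, while Rad21l, Smc1b and Sycp3 are red in all 4 columns of form 2.

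Meiosin and Stra8, which switch cells into meiosis, were also low in ICSI line 20 and in both control lines of form 2. Meiosin was at 2.59, 2.89, 0.741 and 0.989 FPKM in control lines and at 3.16, 2.25, 0.323 and 2.18 FPKM in ICSI lines. Stra8 was at 38.7, 15.9, 11.1 and 9.40 FPKM and at 31.0, 25.5, 6.56 and 29.7 FPKM, with control line 45 below control line 44. The form difference of Stra8 was -1.07 (limma adjusted p 0.105). Of the 51 other meiotic genes tested, 19 had control line 44 and ICSI line 20 as the lowest pair and 1 had them as the highest. Singly, 5 of the 13 undifferentiated markers had these lines as the highest pair. The mean log2(FPKM + 1) of that list was highest in them, at 6.07 and 5.95, against 5.31 to 5.76 in the others. Fibroblast markers were at 5.05 and 4.59, as given above, and at 5.32 in control line 29. The part of these markers in the pattern was not tested.

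**Figure D5:**
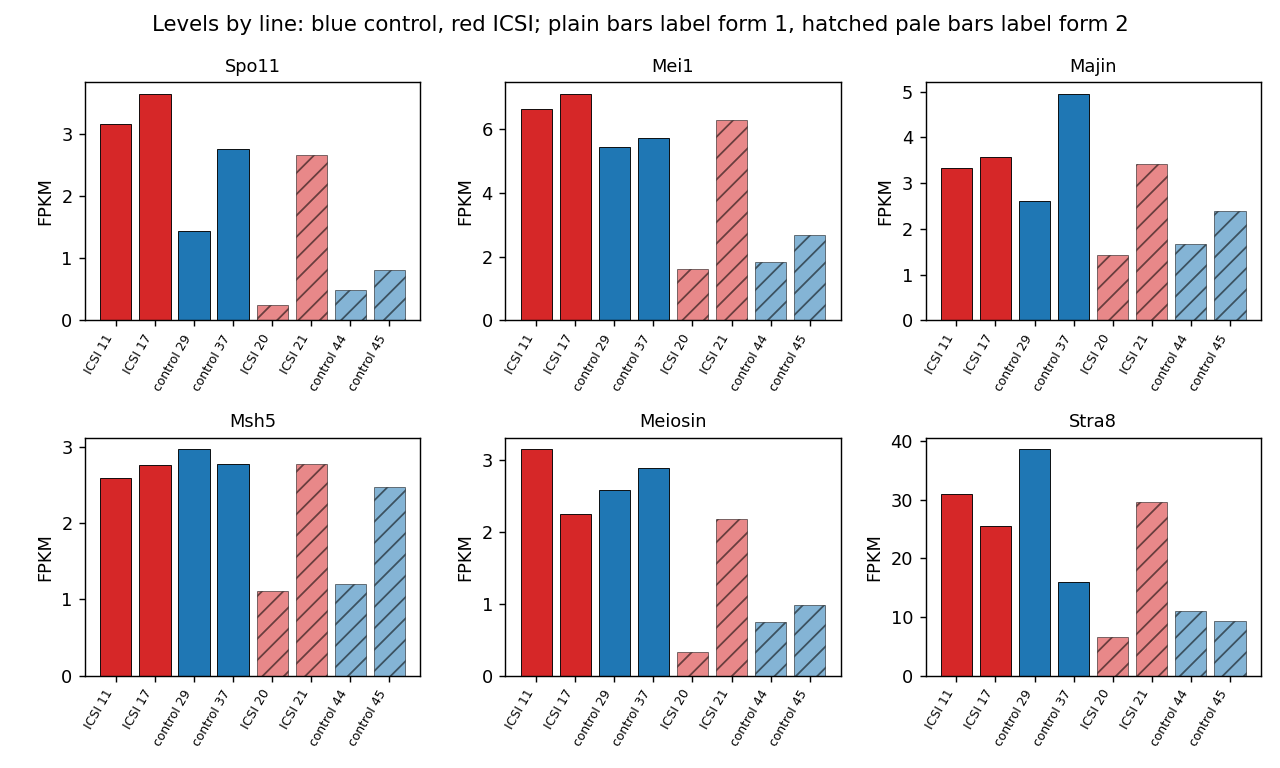
FPKM (y axes) of Spo11, Mei1, Majin, Msh5, Meiosin and Stra8 in each line (x axes), control in blue and ICSI in red, with hatched pale bars for label form 2. ICSI line 20 has the lowest bar in each panel, and ICSI line 21 of the same form and group stands near the lines of form 1.

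ICSI line 21 stood at the other end. It was the highest line in 10 of 32 tested members and the lowest in 0, while 9.3% of all genes tested were highest and 9.9% lowest in it. Control line 29 was the lowest in 9 members and 19.9% of all genes tested. Leaving out control line 44 and ICSI line 20 together, an alternative added after the data were seen, left 0 members called for ICSI and 2 for the label form, Rad21l and Smc1b, with 739 genes called by form in place of 1917. With ICSI line 21 left out, calls by form rose over all genes, to 2691 of the 12000 tested. Among them were 11 of the 32 members: the 5 called in the main fit and Majin, Mei1, Msh5, Spo11, Stag3 and Terb2.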

How the data were processed

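The mRNA of 8 GS cell lines was sequenced with single reads. Per the submitters' processing notes, the authors used cutadapt, STAR on mm10 and HTSeq, with versions 3.4, 2.7.9a and 0.13.5 listed for label form 1 and 1.16, 2.6.0c and 0.11.2 for form 2; the study's methods name the former for all lines. The authors deposited FPKM values for 31010 genes in 1 table. The log2 fold change and adjusted p of the authors' DESeq2 comparison were not used. The labels and the methods name different library kits, so strandedness is uncertain. The 34 members and all gene lists were chosen with earlier results of these data known. Whole reads were recovered from the FPKM steps with GENCODE M21 exon lengths for 99.8% of genes above 0 (within 0.02 reads). FPKM values were tested as log2(FPKM + 1) in limma 3.58.1 (R 4.3.3; trend, two-sided, Benjamini-Hochberg over the 12000 genes averaging 1 FPKM or more); a pseudocount of 1 understates changes of low genes. Single members were also tested by exact permutation in Python 3.11.15. The fit was tested on simulated data for these 12000 genes, with the spread left after group, label form and their interaction. Of 100 genes changed by 1 on the log2 scale, 93 were called for ICSI, 82 between forms and 16 for the interaction. The simulated data for ICSI held no difference between forms, which the ICSI fit without label form leaves in its spread. The 93 therefore does not show how many such changes that fit would find in these data. Values in every line were given for the 8 highest members, members past 0.05 between label forms, and the 3 higher and 3 lower members nearest a difference in ICSI lines. Promoter sequences came from RefSeq (GRCm38.p6) and gene positions from GENCODE M21 (GRCm38, the same assembly as mm10); 6 members without a promoter entry were only named: Ythdc2, Tex11, Spo11, Meiob, Majin and Terb2. Alternatives were other pseudocounts, filters and scalings, TPM, voom on recovered reads, label form as covariate and leaving out lines. Some general counterparts are not reported here.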

Additional observations from a re-analysis of the deposited data

Results flagged for a closer look

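In 7 of 64 groups of 4 lines, the highest or lowest line of a tested member stood apart from the other 3. The gap took up most of the group's range (Dixon's criterion at the 95% level). Chance alone flags about 1 in 20 independent groups. These groups share the same lines and each mixes both label forms, so that rate does not apply to the count. ICSI line 20 accounted for 4 of the 7 flagged groups, in each case as the low line. Stag3 had 58.5 FPKM there, where the remaining ICSI lines ranged from 104 to 106 FPKM. Mei1 had 1.62 FPKM (range of the remaining lines 6.28 to 7.12), Majin 1.44 FPKM (3.34 to 3.57) and Msh5 1.11 FPKM (2.59 to 2.78). Control line 29 was low for Syce2, at 60.5 FPKM, with the remaining controls at 71.0 to 72.6 FPKM. ICSI line 11 was low for Syce3, at 27.6 FPKM, with the remaining ICSI lines at 37.3 to 38.7 FPKM. Control line 44 was high for Mei4, at 3.31 FPKM, with the remaining controls at 2.58 to 2.704 FPKM. What sets these lines apart was not tested.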

How the results depend on the processing

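Under every alternative run, 0 members were called for ICSI, and 0 genes were called except without a filter on low values, where 1 gene was called. Members differing between label forms numbered 5, with the following exceptions. Without the filter, 3 of 34 members and 1255 of 23964 genes were called. With a filter at 0.1 FPKM it was 6 (Meiob added) of 34 members and 2036 of 16889 genes. Of 32 members and 12000 genes, quantile normalization called 4 and 1971. Leaving out control line 44 and ICSI line 20 gave 2 and 739. Leaving out each line in turn gave 2 to 11 of the 32 members and 210 to 2691 of the 12000 genes. There were 2 members without control 44 (675 genes), ICSI 11 (210) or ICSI 17 (429). Without control 29 (1044 genes), 37 (287) or 45 (1061) there were 3. The count was 4 without ICSI 20 (1209 genes) and 11 without ICSI 21 (2691). Fewer lines were fitted in each of these, and other causes were not tested. The interaction called 0 members under every alternative run. The sign of the ICSI difference turned for Sycp1 without ICSI line 17 (0.0018 on the log2 scale) and for Sycp2 without control line 45 (0.0026) or ICSI line 20 (0.19). Over the lines left out, the differences ran from 0.18 to 0.35 for Hormad1, 0.17 to 0.34 for Syce3 and 0.08 to 0.17 for Rec114, and from -0.23 to -0.05 for Syce1, -0.30 to 0.0018 for Sycp1 and -0.33 to 0.19 for Sycp2. Adjusted p-values of these 6 members lay between 0.999 and 1.0 throughout. Median-of-ratios scaling gave all 8 lines the same factor and so tests nothing here. No paired analysis was possible because the groups share no line numbers. Depth limits Meiob, Prdm9 and Spo11, which had as few as 6, 35 and 31 reads in a line.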
